A study of Mus musculus with 27 samples.

Results

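The 9 genes described here encode RNA-binding proteins that set how long inflammatory mRNAs last: the tristetraprolin gene Zfp36 and its paralogs Zfp36l1 and Zfp36l2, the Regnase genes Zc3h12a and Zc3h12c, the Roquin genes Rc3h1 and Rc3h2, and the AU-rich element binding proteins Elavl1 and Khsrp. They were taken by name, and not by a cut on their values, from the 25192 gene symbols of a count table of 27 mouse libraries. Earlier results of these data were known when they were chosen. All 9 passed the filter on low counts in every cell type. The libraries are bulk RNA sequencing of cultured cells given imidazole propionate (ImP), a product of gut bacterial histidine metabolism, in a study of atherosclerosis.

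There were 9 groups of 3 libraries. Bone marrow derived macrophages, cells labelled aortic endothelial (MAECs) and embryonic fibroblasts (MEFs) were each sampled unstimulated (0 h) and after 1 h and 2 h with ImP at 10 µg/mL. The labels give no strain, age or sex, no vehicle group at 1 or 2 h, and no culture or animal for any library, so ImP and elapsed time cannot be told apart in any comparison. Spread between libraries of a group, on which the p-values rest, may thus be technical. Library totals were 28754034 to 35583478 counts in macrophages, 18955352 to 61029374 counts in the MAEC libraries and 30554596 to 36489015 counts in fibroblasts. The MAEC libraries came from another RNA kit and a low-input library kit, so cell type and kit cannot be told apart.

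Of 8 macrophage markers, 8 averaged at least 10 CPM (counts scaled to a common library size) in the macrophage libraries. In the MAEC libraries 1 of 10 endothelial markers did so, the co-receptor gene Eng at 102 CPM, while the endothelial junction genes Cdh5 and Pecam1 averaged 0.53 and 1.32 CPM. The 10 endothelial markers together reached 88.7 to 137 CPM in the MAEC libraries, against 85.9 to 117 CPM in fibroblasts. For the MAEC libraries, smooth muscle markers averaged that much for 3 of 6, with Acta2 at 776 CPM, and fibroblast markers for 8 of 9, with Pdgfra at 325 CPM. Macrophage markers summed to 46 to 84.3 CPM in them, against 23900 to 27800 CPM in macrophages. The aortic endothelial label was thus not met by endothelial markers, and these libraries are called by their label, MAEC. In fibroblasts 5 of 9 fibroblast markers reached that level, with Col1a1 at 2110 CPM.

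Library numbers in the labels ran in the order 0 h, 1 h, 2 h in 8 of the 9 sets of 3 libraries. In the third macrophage set, number 21 was labelled 0 h, number 22 was labelled 2 h and number 23 was labelled 1 h. Numbers 22 and 23, the third replicates at 2 h and at 1 h, also differed from their fellow replicates in several of the genes below. Results that rest on them are given as labelled and again without those 2 libraries, which leaves 2 libraries each at 1 h and at 2 h against 3 at 0 h. They were chosen with their values known, so the p-values without them are not those of a test set in advance. Leaving them out also narrows the spread of the genes in which they stood apart, which lowers those p-values.

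Many cytokine mRNAs carry AU-rich elements in the 3′ untranslated region. Tristetraprolin and its paralogs bind these elements and recruit the CCR4-NOT deadenylase, Khsrp also promotes decay of such mRNAs, and Elavl1 (HuR) binds them and tends to stabilise them. Regnase-1, the product of Zc3h12a, is an endonuclease that cuts mRNAs at stem-loops, and the Roquin proteins bind stem-loops and recruit deadenylases. In activated macrophages Zfp36 and Zc3h12a are known as feedback genes, which are transcribed along with the cytokine mRNAs that their proteins remove.

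The mRNAs of the Zfp36 family carry the kind of element that their own proteins bind. A nonamer found in cytokine AU-rich elements, TTATTTATT on the DNA strand of the transcript, is shown in capitals in a 30-base window from 4 members and from Tnf, the tumour necrosis factor gene, as a known target. Windows are from the GENCODE M21 transcripts on GRCm38, minus strand, 5′ to 3′, and lie at chr7:28376951-28376980, chr12:80108167-80108196, chr17:84184914-84184943, chr8:4285786-4285815 and chr17:35199681-35199710 in the order shown.
Zfp36: ttatgacgactTTATTTATTgtattaagat
Zfp36l1: aaactgttggaTTATTTATTttagaaattc
Zfp36l2: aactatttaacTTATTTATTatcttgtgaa
Elavl1: tcatgaaaaTTATTTATTTATTTATTTATT
Tnf: ttaTTATTTATTATTTATTTATTATTTATT
The nonamer occurred 1 time each in the 3′ untranslated regions of Zfp36, Zfp36l1, Zfp36l2, Rc3h1 and Rc3h2, 8 times in that of Elavl1, counting overlapping copies, and 5 times in that of Tnf. It was not found in Zc3h12a, Zc3h12c or Khsrp. Of 20858 genes with an annotated region, 7.63% held it at least once. Among regions of like length (within 20%) the share was 4.11% for Zfp36, 9.9% for Zfp36l1, 9.89% for Zfp36l2, 27.3% for Rc3h1, 21.8% for Rc3h2 and 17.8% for Elavl1. Of the other target transcripts named below, Il1b, Nfkbiz and Socs3 held no copy and Dusp1 held 2. A match is a description of the letters and not a measured site.

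The 250 bases before the RefSeq start (GRCm38.p6, minus strand, 5′ to 3′) are shown for 3 of 4 members, described below. These 4 differed most, as a ratio, between single macrophage libraries. The promoter of the fourth of them, Zc3h12c, held 1 GC box and no other motif searched for. In Zfp36 (chr7:28379229-28379478) the capitals mark an EGR motif (GCGGGGGCG) 97 to 105 bases and a CArG box, the serum response factor motif, 49 to 58 bases before the start. In Zfp36l1 (chr12:80113014-80113263) they mark an AP-1 motif (TGANTCA) 123 to 129 bases and a TATA box (TATAAA) 24 to 29 bases before the start. In Zc3h12a (chr4:125127882-125128131) they mark 5 GC boxes (GGGCGG).
Zfp36: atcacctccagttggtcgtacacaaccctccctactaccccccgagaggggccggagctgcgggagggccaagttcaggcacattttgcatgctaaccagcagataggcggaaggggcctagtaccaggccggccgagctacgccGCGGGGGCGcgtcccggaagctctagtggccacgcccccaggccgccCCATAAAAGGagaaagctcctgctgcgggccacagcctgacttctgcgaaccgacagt
Zfp36l1: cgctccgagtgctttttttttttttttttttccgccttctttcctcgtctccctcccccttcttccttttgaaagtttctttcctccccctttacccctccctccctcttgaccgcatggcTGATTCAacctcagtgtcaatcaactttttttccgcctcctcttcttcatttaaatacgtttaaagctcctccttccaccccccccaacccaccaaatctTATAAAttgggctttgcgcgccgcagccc
Zc3h12a: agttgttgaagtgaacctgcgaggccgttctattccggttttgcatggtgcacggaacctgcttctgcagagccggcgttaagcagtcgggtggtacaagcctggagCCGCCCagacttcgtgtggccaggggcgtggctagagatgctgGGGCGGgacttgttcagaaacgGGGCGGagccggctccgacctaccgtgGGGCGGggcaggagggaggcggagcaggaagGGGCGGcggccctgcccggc
Of 32851 promoters of this length, 2.57% held the EGR motif, 1.47% a CArG box, 6.75% the AP-1 motif and 32.7% a GC box, on either strand, and 7.59% held the TATA box on the given strand. In Zfp36 a GC box 58 to 63 bases before the start overlaps the CArG box by 1 base. The NF-kB motif, kappaB, and the cyclic AMP response element were searched for on both strands and matched none of the 8 member promoters in the table, and 3.9% and 1.55% of all promoters held them. That says only that these letters are not in this window.

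In macrophages Zfp36, Zc3h12a, Zc3h12c and Zfp36l1 were higher in 2 of the 3 libraries labelled 1 h than in every unstimulated library, in each case by a wider gap than any other member showed. The same libraries of Zfp36l2 and Khsrp lay slightly above all unstimulated ones, and those of the Roquin genes and Elavl1 did not. Zfp36 had 193, 203 and 186 CPM at 0 h, 485, 484 and 192 CPM at 1 h, then 195, 213 and 496 CPM at 2 h. The first and second 1 h libraries and the third 2 h library were high, and the other 6 lay together, so the groups overlap. In bulk RNA a smaller share of responding cells and a smaller response per cell cannot be told apart.

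Zc3h12a had 19, 16.1 and 17.2 CPM at 0 h, 37.6, 33.7 and 14.8 CPM at 1 h, then 18.3, 15.3 and 39.4 CPM at 2 h. Zc3h12c, the Regnase-3 gene, had 20.3, 18.6 and 22.8 CPM at 0 h, 37.1, 35.9 and 24.5 CPM at 1 h, then 26.7, 25.5 and 39.9 CPM at 2 h. The same 3 libraries were high in both genes. In Zc3h12c alone of these 4 genes, all 3 libraries at 1 h and all 3 at 2 h lay above all 3 at 0 h. The share of all genes that did so was not counted. Zfp36l1 had 208, 233 and 218 CPM at 0 h, 318, 314 and 190 CPM at 1 h, then 217, 219 and 320 CPM at 2 h, again with the first and second 1 h libraries and the third 2 h library high. Zfp36l2, the most abundant of the family at 0 h, had 387, 380 and 370 CPM at 0 h, 429, 419 and 370 CPM at 1 h, then 398, 420 and 408 CPM at 2 h.

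The third 1 h library held 0.397 times the mean of the other 1 h libraries for Zfp36, 0.415 times for Zc3h12a, 0.602 times for Zfp36l1 and 0.67 times for Zc3h12c. The third 2 h library held 2.44 times the mean of the other 2 h libraries for Zfp36, 2.34 times for Zc3h12a, 1.47 times for Zfp36l1 and 1.53 times for Zc3h12c. For the other 5 members these ratios were 0.871 to 1.17 at 1 h and 0.81 to 1.05 at 2 h.

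**Figure D1:**
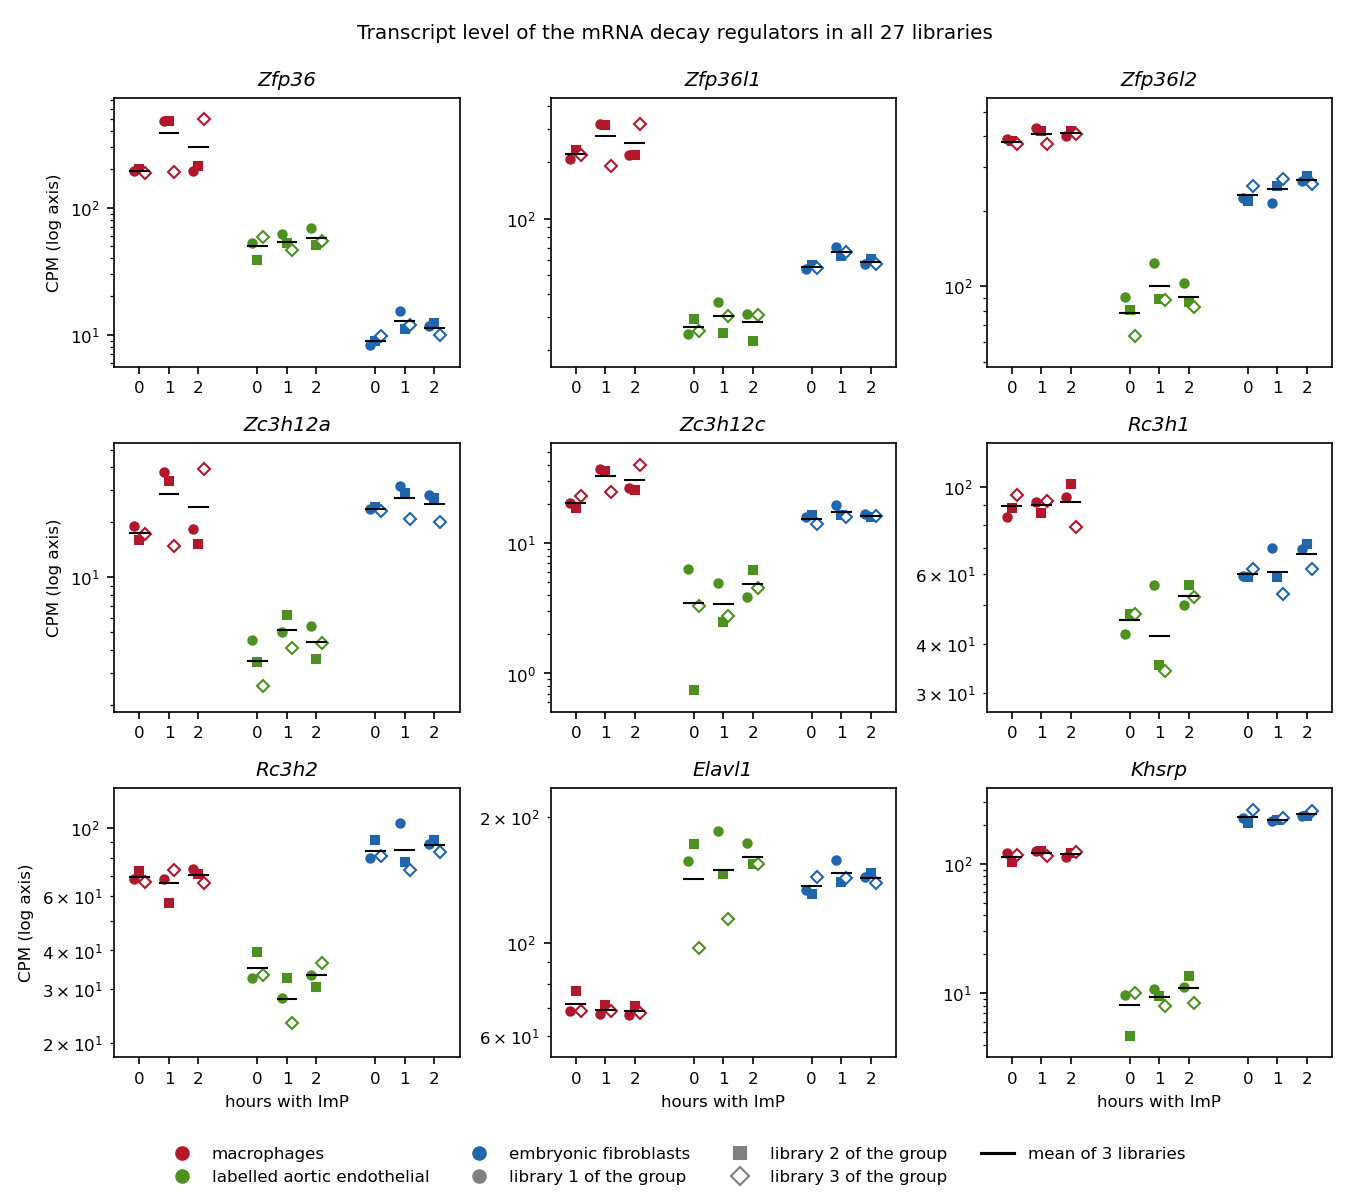
Level of each member in CPM (log axis) against hours with ImP, in macrophages, MAEC and fibroblast libraries, with a point for each library (open diamonds mark the third library of a group) and a line at the mean of 3. In macrophages the open diamonds of Zfp36, Zfp36l1 and Zc3h12a lie low at 1 h and high at 2 h, the reverse of the other libraries of those groups.

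With all libraries as labelled, none of the 9 members passed at 1 h against 0 h in macrophages (edgeR quasi-likelihood test, Benjamini-Hochberg adjusted p under 0.05), where 0.0226% of 13251 genes were called. The log2 fold change was 0.99 for Zfp36 (SE 0.492, edgeR adjusted p = 0.942), 0.72 for Zc3h12a (SE 0.472, adjusted p = 0.964), 0.66 for Zc3h12c (SE 0.207, adjusted p = 0.922) and 0.32 for Zfp36l1 (SE 0.235, adjusted p = 0.964). At 2 h against 0 h these genes stood at 0.64 (SE 0.49), 0.48 (SE 0.473), 0.58 (SE 0.207) and 0.20 (SE 0.235) in the same order, none past the threshold, with 0.0302% of genes called. Before adjustment 1 member, Zc3h12c, had p under 0.05 at 1 h and at 2 h in edgeR. DESeq2 and limma-voom called 0 members in both comparisons. At 2 h against 1 h edgeR called no gene (0%) and no member, with 218 genes at p under 0.05 before adjustment, none a member, and DESeq2 and limma-voom called 1 gene each. The comparisons of 1 h and of 2 h share the 0 h libraries.

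Without those 2 libraries 4 of 9 members were called higher at 1 h against 0 h. That fit called 0.928% of 13465 genes, 0.824% higher and 0.104% lower. The 2 libraries left out stood apart in these same 4 members. Leaving them out thus narrowed the spread and lowered the p-values below. Zfp36 rose by a log2 fold change of 1.32 (SE 0.0646, edgeR adjusted p = 2.89e-08), which is 2.49-fold, and Zc3h12a rose by 1.03 (SE 0.114, edgeR adjusted p = 0.000162). Zc3h12c rose by 0.83 (SE 0.102, edgeR adjusted p = 0.000471) and Zfp36l1 by 0.52 (SE 0.0641, edgeR adjusted p = 0.000474). Zfp36l2 stood at 0.16 (SE 0.0595, edgeR adjusted p = 0.53). The values were -0.01 (SE 0.0763) for Rc3h1, -0.15 (SE 0.0848) for Rc3h2, -0.05 (SE 0.0753) for Elavl1 and 0.13 (SE 0.0786) for Khsrp, none of them called. The median over the 9 members was 0.16, against 0 over all genes tested.

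At 2 h against 0 h without those libraries none of the 9 members was called, and 0.119% of genes were, 0.111% higher and 0.00743% lower. Zfp36 stood at 0.08 (SE 0.0657), Zc3h12a at -0.05 (SE 0.119) and Zfp36l1 at -0.01 (SE 0.0649), while Zc3h12c stood at 0.35 (SE 0.104, edgeR adjusted p = 0.459). At 2 h against 1 h 3 of 9 members were called lower, with 0.661% of genes called, 0.609% lower and 0.052% higher. The p-values of these 3 are lowered by the choice of libraries in the same way. The log2 fold change was -1.24 for Zfp36 (SE 0.0728, edgeR adjusted p = 2.88e-07), -1.07 for Zc3h12a (SE 0.128, edgeR adjusted p = 0.000452) and -0.52 for Zfp36l1 (SE 0.0711, edgeR adjusted p = 0.00147). Zc3h12c stood at -0.47 (SE 0.113, edgeR adjusted p = 0.124). Each of these calls needs both libraries left out: leaving out any 1 macrophage library called no member. Over the 18 other alternatives, tools included, Zfp36 at 1 h lay between 0.80 and 1.32 with adjusted p of 0.661 to 1.

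**Figure D2:**
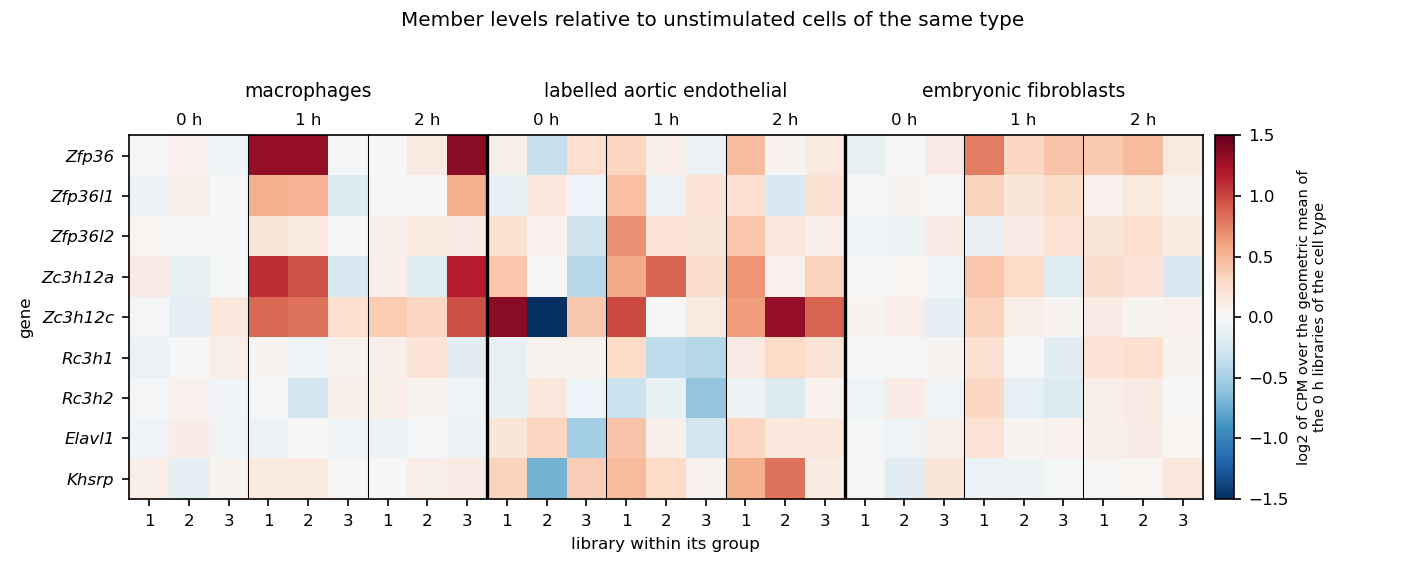
Heat map of each member (rows) in each library (columns), as log2 of its CPM over the geometric mean of the 0 h libraries of the same cell type. In macrophages Zfp36, Zc3h12a, Zc3h12c and Zfp36l1 are red or orange in the first and second 1 h libraries and in the third 2 h library, while Rc3h1, Rc3h2, Elavl1 and Khsrp stay pale; in the MAEC libraries Zc3h12c varies most, with 17 to 328 counts per library at 0 h, and values past an end of the colour scale share its end colour.

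Within the Zfp36 family the makeup differed between the same libraries. Per transcript length (TPM from these counts over the longest coding transcript), Zfp36 made up 43.2, 43.7 and 29.1% of the summed level of the 3 paralogs in the macrophage libraries at 1 h, against 27.8, 28.2 and 27.3% at 0 h. At 2 h it made up 27.3, 28.4 and 44.4%. Zfp36l2 held 42.9% ± 1.3 and Zfp36l1 29.3% ± 1.2 at 0 h (SD, n = 3). In the MAEC libraries Zfp36 held 36.7% ± 7.3 at 0 h (SD, n = 3). In fibroblasts Zfp36 held 3.68% ± 0.17 at 0 h and Zfp36l2 75.1% ± 1.4 (SD, n = 3). These shares depend on the transcript length taken, 2790 bases for Zfp36. Its GENCODE gene model runs past the RefSeq start used for the promoter. A shorter transcript would raise the share of Zfp36, and other lengths were not tested.

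In macrophages no change was called in the stem-loop binding Roquin genes, Elavl1 or Khsrp. Rc3h1, whose product is Roquin-1, had 84.1, 88.6 and 95.5 CPM at 0 h, 91.8, 85.8 and 92.4 CPM at 1 h, then 94.5, 102 and 79.4 CPM at 2 h, and the groups overlap. Rc3h2 lay between 57.0 and 73.8 CPM over all 9 macrophage libraries. The stabiliser gene Elavl1 lay between 67.5 and 76.9 CPM and Khsrp between 102 and 125 CPM, with no library outside the spread of the others in the way seen for Zfp36. As labelled, their log2 changes at 1 h were 0.01 (SE 0.0867) for Rc3h1, -0.07 (SE 0.0871) for Rc3h2, -0.05 (SE 0.0651) for Elavl1 and 0.09 (SE 0.0722) for Khsrp.

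In the MAEC libraries no member passed in any of the 3 comparisons of times, and no gene of 14779 was called in any of them (0%). Zfp36 had 52.5, 38.7 and 58.8 CPM at 0 h, 61.6, 52.7 and 46.2 CPM at 1 h, then 68.7, 50.6 and 54.3 CPM at 2 h, and the groups overlap. The smallest p was that of Zfp36l2 at 1 h against 0 h, with a log2 fold change of 0.37 (SE 0.153, edgeR adjusted p = 0.826, 0.0324 before adjustment). Zfp36l2 had 124, 88.8 and 87.9 CPM at 1 h against 90.6, 80.6 and 63.0 CPM at 0 h, and the groups overlap. Zc3h12a stood at 0.56 (SE 0.342) and Zc3h12c at 0 (SE 0.549) at 1 h. The other members then lay between -0.32 for Rc3h2 (SE 0.178) and 0.23 for Khsrp (SE 0.286). At 2 h against 0 h the 9 members lay between -0.07 for Rc3h2 (SE 0.177) and 0.52 for Zc3h12c (SE 0.548), and at 2 h against 1 h between -0.22 for Zc3h12a (SE 0.34) and 0.53 for Zc3h12c (SE 0.549). Rc3h1 at 2 h (50.0, 56.3 and 52.4 CPM) lay above its 0 h libraries (42.3, 47.7 and 47.7 CPM). Rc3h2 at 1 h (28.0, 32.5 and 23.3 CPM) lay below its own (32.6, 39.5 and 33.4 CPM). The share of all genes so separated was not counted. Errors were wide in the MAEC libraries: the biological coefficient of variation was 0.326, against 0.126 in macrophages and in fibroblasts. Before adjustment 733, 1361 and 293 genes had p under 0.05 at 1 h against 0 h, 2 h against 0 h and 2 h against 1 h in edgeR, and DESeq2 called 1, 22 and 6 genes and limma-voom 0 in each, with no member among them.

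In fibroblasts Zfp36 and Zfp36l1 had higher levels in all 3 libraries at 1 h than in all 3 at 0 h, but no member passed in any comparison of times and no gene of 14066 was called (0%). The share of all genes separated in this way was not counted, so the separation is not a result about these members. Zfp36 had 15.3, 11.1 and 12.0 CPM at 1 h against 8.26, 8.94 and 9.72 CPM at 0 h, a log2 fold change of 0.50 (SE 0.143, edgeR adjusted p = 0.846, 0.00364 before adjustment). Its levels at 2 h were 11.8, 12.4 and 9.91 CPM, all above those at 0 h, with a log2 fold change of 0.32 (SE 0.142, edgeR adjusted p = 1). Zfp36l1, Zfp36l2 and Rc3h1 also lay above all their 0 h libraries at 2 h. For Rc3h1 the nearest values were 62.0 CPM at 2 h and 61.8 CPM at 0 h.

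Zfp36l1 had 70.5, 63.0 and 66.9 CPM at 1 h against 54.3, 56.9 and 54.9 CPM at 0 h in fibroblasts, a log2 fold change of 0.26 (SE 0.0709, edgeR adjusted p = 0.846, 0.00292 before adjustment). At 2 h it had 57.7, 61.2 and 57.5 CPM, below all 3 libraries at 1 h, with a log2 fold change of -0.20 against 1 h (SE 0.0708, edgeR adjusted p = 0.29). Library levels of fibroblasts also varied with gene length: the rank correlation of a library's deviation with length was 0.028, -0.37 and -0.43 in the 1 h libraries and -0.018, -0.059 and 0.2 in the 0 h libraries. With that trend removed the changes at 1 h were 0.479 for Zfp36 and 0.221 for Zfp36l1 on the log2 scale. Zc3h12a had 31.7, 29 and 20.8 CPM at 1 h against 23.8, 24.3 and 23.1 CPM at 0 h, and the groups overlap.

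Before adjustment 826, 342 and 1709 genes had p under 0.05 in fibroblasts at 1 h against 0 h, 2 h against 0 h and 2 h against 1 h in edgeR. DESeq2 called 10, 5 and 308 genes and limma-voom 0 in each, with 0 of the 9 members among them in every case. The log2 changes of the other members at 1 h lay between -0.08 for Khsrp (SE 0.0815) and 0.18 for Zc3h12a (SE 0.154).

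**Figure D3:**
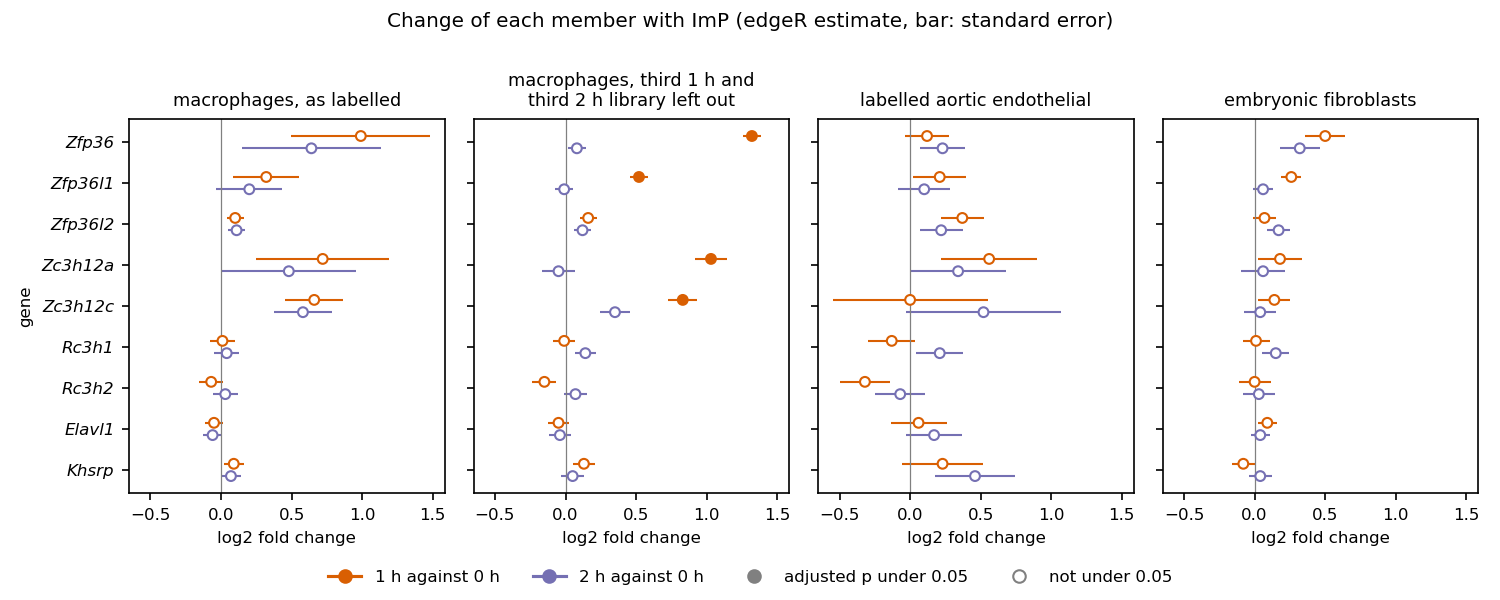
Log2 fold change of each member at 1 h and at 2 h against 0 h, as edgeR estimates with standard errors, in macrophages as labelled, in macrophages without libraries 22 and 23, in MAEC libraries and in fibroblasts; filled points have an adjusted p under 0.05. The filled points are Zfp36, Zfp36l1, Zc3h12a and Zc3h12c at 1 h in the second panel.

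The difference of the 1 h change between cell types was tested as an interaction in a fit of all 27 libraries. As labelled no member passed in any of the 6 differences. Zfp36 at 1 h stood at 0.90 in macrophages minus MAEC libraries (SE 0.413, edgeR adjusted p = 0.718, 0.0399 before adjustment), where 0.0117% of 17038 genes were called. Differences of the 2 h change lay between -0.36 for Khsrp in macrophages minus MAEC libraries (SE 0.251) and 0.51 for Zc3h12c in macrophages minus fibroblasts (SE 0.501). The share called was 0.00587% for the 1 h change in macrophages minus fibroblasts (all higher), 0.0117% for the 2 h change in that pair, 0.0528% for the 2 h change in macrophages minus MAEC libraries (0.0352% higher) and 0% in both differences of MAEC libraries minus fibroblasts. DESeq2 called far more genes in the differences that involve MAEC libraries, 47 against 2 in edgeR for macrophages at 1 h and 106 against 9 at 2 h, and 81 and 63 against 0 for MAEC libraries minus fibroblasts at 1 h and at 2 h, with no member among them. Before adjustment no other member had p under 0.05 in these differences. Without those 2 macrophage libraries Zfp36 passed in that difference, with 1.22 (SE 0.22, edgeR adjusted p = 0.00764), where 0.205% of 17582 genes were called higher. In macrophages minus fibroblasts Zfp36 stood at 0.81 (SE 0.226, edgeR adjusted p = 0.565) without those libraries and did not pass. Zc3h12a stood at 0.84 in macrophages minus fibroblasts (SE 0.303) and 0.51 in macrophages minus MAEC libraries (SE 0.317), Zc3h12c at 0.67 (SE 0.528) and 0.88 (SE 0.547), and Zfp36l1 at 0.25 (SE 0.184) and 0.31 (SE 0.186). None of these passed, so a change particular to macrophages was not shown for them.

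At 0 h Zfp36 and Zfp36l1 were far higher in macrophages than in fibroblasts, and Elavl1 and Khsrp lower. In all 4 of 9 members were higher in macrophages and 2 lower, in a comparison that called 68.3% of 17038 genes, 32.7% higher and 35.5% lower. The share of members called is thus near that of all genes, and their number is not a result about them. Zfp36 averaged 194 ± 8.5 CPM in macrophages and 8.97 ± 0.73 CPM in fibroblasts (SD, n = 3 each), a log2 difference of 4.43 (SE 0.339, edgeR adjusted p = 2.37e-11). Zfp36l1 averaged 220 ± 13 CPM in macrophages and 55.4 ± 1.4 CPM in fibroblasts (SD, n = 3 each), a difference of 1.99 (SE 0.174, edgeR adjusted p = 1.16e-10). Zfp36l2 was higher by 0.71 (SE 0.127). Elavl1 averaged 71.5 ± 4.7 CPM in macrophages and 137 ± 7 CPM in fibroblasts (SD, n = 3 each), a difference of -0.93 (SE 0.151, edgeR adjusted p = 5.06e-06). Khsrp differed by -1.01 (SE 0.171, edgeR adjusted p = 9.4e-06). Thus the Zfp36 paralogs were higher in macrophages, and Elavl1 and Khsrp in fibroblasts. The difference of Zfp36l2 depended most on the processing among the paralogs as a share of its size. It ranged from 0.29 to 0.81 over 34 alternatives and was called in all 34.

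Rc3h1 was higher in macrophages than in fibroblasts by 0.57 (SE 0.143, edgeR adjusted p = 0.000953), a call that ended with library totals as the only scaling (0.154, adjusted p = 0.302). Rc3h2 stood at -0.28 (SE 0.131, edgeR adjusted p = 0.0568), Zc3h12a at -0.45 (SE 0.304) and Zc3h12c at 0.41 (SE 0.355), none of them called. With library totals the median of all genes was -0.48 on the log2 scale, against -0.0655 with TMM scaling, and the share of calls that were higher in macrophages was 36.3%, against 47.9% with TMM. Zc3h12a (-0.865) and Rc3h2 (-0.705) were then called lower.

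Against the MAEC libraries 8 of 9 members were higher and 1 lower in macrophages at 0 h, where 76.7% of genes were called, 36.1% higher and 40.6% lower. Khsrp averaged 113 ± 10 CPM in macrophages and 8.15 ± 3 CPM in MAEC libraries (SD, n = 3 each), a log2 difference of 3.78 (SE 0.195, edgeR adjusted p = 1.74e-15). Zfp36l1 differed by 3.06 (SE 0.182), Zc3h12c by 2.50 (SE 0.384), Zc3h12a by 2.29 (SE 0.331), Zfp36l2 by 2.28 (SE 0.133) and Zfp36 by 1.95 (SE 0.301). The Roquin genes differed by 0.98 for Rc3h2 (SE 0.133) and 0.96 for Rc3h1 (SE 0.144). Elavl1 was the member that was lower in macrophages, with a difference of -0.99 (SE 0.151).

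In MAEC libraries against fibroblasts 1 member was higher and 7 lower at 0 h, where 72.1% of genes were called, 37.2% higher and 34.9% lower. Zfp36 was higher, at 52.5, 38.7 and 58.8 CPM in MAEC libraries and 8.26, 8.94 and 9.72 CPM in fibroblasts, a log2 difference of 2.48 (SE 0.317, edgeR adjusted p = 1.78e-07). Khsrp had 9.74, 4.72 and 9.98 CPM in MAEC libraries and 223, 205 and 259 CPM in fibroblasts, a difference of -4.79 (SE 0.203, edgeR adjusted p = 5.58e-17), the largest between cell types among the members. Zc3h12a differed by -2.74, Zc3h12c by -2.09, Zfp36l2 by -1.57, Rc3h2 by -1.26 and Zfp36l1 by -1.07. Rc3h1 differed by -0.39 (SE 0.143, edgeR adjusted p = 0.018), a call that ended with runs of library numbers as a replicate block (adjusted p = 0.116) and without the first 0 h MAEC library (adjusted p = 0.0756). Elavl1 stood at 0.06 (SE 0.149, edgeR adjusted p = 0.751). The part of the library kits in these differences was not tested.

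**Figure D4:**
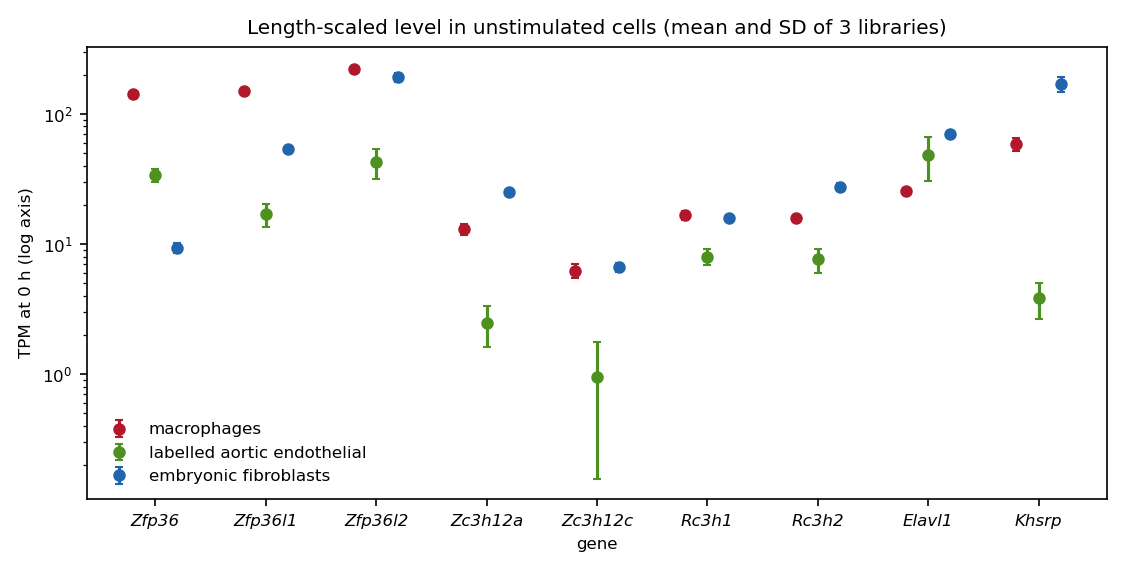
Length-scaled level (TPM, log axis) of each member in unstimulated macrophages, MAEC libraries and fibroblasts, as mean and SD of 3 libraries. Zfp36 spans 9.37 TPM in fibroblasts to 142 TPM in macrophages and Khsrp 3.84 TPM in MAEC libraries to 168 TPM in fibroblasts, while Rc3h1 stays between 8.01 and 16.6 TPM.

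Scaled for transcript length, the order of the members differed between cell types. In unstimulated macrophages the 3 Zfp36 paralogs led, with Zfp36l2 at 220 ± 6.3 TPM, Zfp36l1 at 150 ± 6 TPM and Zfp36 at 142 ± 3.1 TPM (SD, n = 3), followed by Khsrp at 58.4 TPM and Elavl1 at 25.5 TPM. Zfp36l1 and Zfp36 are neighbours in that order whose means ± SD overlap. In the MAEC libraries Elavl1 was at 48.4 ± 18 TPM, Zfp36l2 at 42.8 ± 11 TPM and Zfp36 at 33.9 ± 3.8 TPM (SD, n = 3), and their means ± SD overlap. In fibroblasts Zfp36l2 was at 191 ± 16 TPM, Khsrp at 168 ± 22 TPM and Elavl1 at 69.3 ± 4.1 TPM (SD, n = 3), with Zfp36 at 9.37 TPM. The means ± SD of Zfp36l2 and Khsrp overlap there. Zc3h12c was the lowest member in all 3 cell types, at 6.22, 0.958 and 6.64 TPM in macrophages, MAEC libraries and fibroblasts. The order of members within a cell type depends on the transcript lengths taken.

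Over all 9 groups, the means of Zfp36 ran from macrophages (387, 301 and 194 CPM at 1, 2 and 0 h) through MAEC libraries (57.9 to 50.0 CPM) to fibroblasts (12.8 to 8.97 CPM), and 5 of its 8 neighbouring pairs of groups overlap. For Elavl1 7 of 8 neighbouring pairs overlap and the only break lies between fibroblasts and macrophages. For the other 7 members 4 to 6 of 8 pairs overlap. Such counts over all genes were not made. At 0 h 68.3 to 76.7% of all genes were called between cell types, so breaks between cell types are not particular to the members. On GRCm38 the members lie at chr7:28376784-28380253 (Zfp36), chr12:80107754-80113013 (Zfp36l1), chr17:84183931-84187947 (Zfp36l2), chr4:125118423-125127840 (Zc3h12a), chr9:52111344-52168572 (Zc3h12c), chr1:160906418-160974978 (Rc3h1), chr2:37370069-37422903 (Rc3h2), chr8:4285382-4325413 (Elavl1) and chr17:57021051-57031522 (Khsrp), and all but Rc3h1 are on the minus strand. The strand of counting is not given in the sources used here. In GENCODE M21 Zfp36, Zfp36l1, Zfp36l2, Zc3h12c, Elavl1 and Khsrp overlap a gene on the other strand, and Rc3h1 and Rc3h2 overlap other annotated genes on their own strand, so reads of these pairs may be shared.

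Among 5 lists of genes whose products act with the members or on the same mRNAs, Btg2, Btg1 and Dusp1 rose in macrophages at 1 h when libraries 22 and 23 were left out. As labelled, 0 genes of any of the 6 related lists passed in any comparison of times. Without those 2 macrophage libraries, in the fit that called 0.824% of all genes higher and 0.104% lower, 2 of 18 deadenylation genes rose at 1 h, the antiproliferative CCR4-NOT partners Btg2 (log2 fold change 1.57, SE 0.0853, edgeR adjusted p = 8.68e-08) and Btg1 (0.35, SE 0.0662, edgeR adjusted p = 0.0216). Btg2 had 72.9, 64.7 and 19.7 CPM in macrophages at 1 h, against 23.5, 22.4 and 23.3 CPM at 0 h. None of 11 decapping genes, 14 exosome genes and 16 other 3′ region binding proteins was called. Of 12 kinases, phosphatases and proteases that act on these proteins 1 rose, Dusp1, whose product inactivates p38 kinases (1.91, SE 0.101, edgeR adjusted p = 1.76e-07). Dusp1 is also in the list of target transcripts below. The p-values of Btg2, Btg1 and Dusp1 are lowered by the choice of libraries in the same way as those of the members. Medians of these 5 lists were -0.03 to 0.05, against 0 over all genes.

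Of 21 textbook target transcripts tested, which earlier results of these data had in view, 15 rose and 0 fell at 1 h without those libraries. That fit called 0.824% of all genes higher and 0.104% lower, and the median log2 fold change of the targets was 2.75. Tnf had 17.7, 16.3 and 17.6 CPM at 0 h, 264, 257 and 21.1 CPM at 1 h, then 16.6, 21.4 and 310 CPM at 2 h. Nfkbiz, an inducible NF-kB cofactor and Regnase-1 target, had 6.45, 7.10 and 6.74 CPM at 0 h, 154, 153 and 8.37 CPM at 1 h, then 7.44, 9.37 and 160 CPM at 2 h. The libraries high in Zfp36 and Zc3h12a were thus the libraries high in these targets. The changes without those libraries were 3.92 for Tnf (SE 0.0949), 4.5 for Nfkbiz (SE 0.0989), 5.53 for Socs3 (SE 0.146) and 6.29 for Il1b (SE 0.167). At 2 h against 1 h 14 of the 21 targets fell, with a median of -2.51, where 0.609% of all genes were called lower. Btg2 (-1.71, SE 0.0976), Btg1 (-0.45, SE 0.0732) and Dusp1 (-1.60, SE 0.114) fell as well. As labelled the median of the targets at 1 h was 2.29 with 0 called.

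By the root mean square difference of log2 CPM over 27 libraries, each centred on its cell type's 0 h mean, the genes most like Zfp36 among 10013 were Phlda1 (0.208), Btg2 (0.215) and Sdc4 (0.229), where the profile of Zfp36 itself has a root mean square of 0.517. Among the members Zc3h12a ranked 15th and Zfp36l1 24th. Those most like Zc3h12a were Sowahc (0.269), the histone demethylase gene Kdm6b (0.273) and the NF-kB subunit gene Rel (0.278), with Zfp36 18th. In macrophages Kdm6b had 19.3, 18.4 and 15.5 CPM at 0 h, 45.5, 41.0 and 16.1 CPM at 1 h, then 22.4, 23.4 and 39.7 CPM at 2 h. These points share the macrophage libraries that stand apart, and the measure is a description.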

How the data were processed

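The deposited values are expected counts per gene symbol, all of them whole numbers, in a table of 27 libraries, which tables deposited by group repeat. The submitters' processing notes name RSEM and STAR, with cutadapt, FastQC, DESeq2 and R 4.3.2, and the builds mm10 and GRCm38.p6. Their order, settings, strand and annotation are not given in the sources used here. No pair of replicates held the same counts (lowest chi-squared per degree of freedom 5.89 over 27 pairs).

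Each cell type was fitted alone with edgeR 4.0.16 in R 4.3.3 (filterByExpr at a minimum count of 10, TMM, robust quasi-likelihood F-test, two-sided, Benjamini-Hochberg over all genes tested, threshold 0.05), and levels at 0 h and differences between cell types in 1 fit of 27 libraries. Standard errors are the log2 fold change over the square root of F. CPM use TMM factors over all 27 libraries. TPM divide these counts by the longest coding transcript in GENCODE M21, matched by symbol for 97.3% of symbols. Alternatives were DESeq2 1.42.0, limma-voom (limma 3.58.1), RLE scaling, library totals, other low-count filters, runs of library numbers as a replicate block, removal of the length trend, a single fit of all libraries, each library left out, and macrophage libraries 22 and 23 left out together. The edgeR fit of 1 h against 0 h in each cell type was also run on simulated counts, in which no library was made to stand apart. The other fits were not tested on simulated data.

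The members, the related lists and the alternatives were chosen with earlier results of these data known. By the rule for names, all 9 members were to be named in every comparison, and from each related list up to 4 called genes with the smallest p. The text gives some members by their range, and at 0 h only some of the genes the rule names in a list. Markers come from fixed lists. For Zfp36 and Zc3h12a the 3 most alike genes are named, among those averaging 1 CPM or more in every cell type.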

Additional observations from a re-analysis of the deposited data

Results flagged for a closer look

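Macrophage libraries 22 (the third replicate at 2 h) and 23 (the third replicate at 1 h) were left out in 1 fit. There the 1 h change of Zfp36 differed between macrophages and the MAEC libraries by 1.22 on the log2 scale. It was marked by a rule that takes every member whose interaction term passed (edgeR, adjusted p = 0.00764). ImP and elapsed time cannot be told apart in this difference, nor can MAEC cell type and kit. In that fit the 2 macrophage libraries left at 1 h lay above all 3 at 0 h. The MAEC libraries at 1 h overlapped those at 0 h. Library 23, with 192 CPM of Zfp36 against 186 to 203 CPM at 0 h, was left out with its value known. The separation in macrophages thus follows from that choice, and the p-value is not that of a test set in advance. As labelled the difference was 0.90 and did not pass (edgeR adjusted p = 0.718). No other member was marked.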

How the results depend on the processing

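Leaving out macrophage libraries 22 and 23 together moved 3 counts of members called from 0: to 4 at 1 h against 0 h in macrophages, to 3 at 2 h against 1 h, and to 1 for the 1 h change in macrophages minus MAEC libraries. Under every other alternative run, leaving out each library in turn included, members called stayed at 0 in all comparisons of times and differences of changes. No called value turned its direction. With runs of library numbers as a replicate block members called in the comparisons of times were 0 as well. Same-run pairs (9 per cell type) correlated in their deviations at -0.402 to 0.12 in macrophages. The range was -0.0459 to 0.168 in MAEC libraries and -0.108 to 0.298 in fibroblasts. For pairs of different runs (18 per cell type) it was -0.334 to 0.376, -0.136 to 0.102 and -0.272 to 0.169 in that order. In macrophages the highest correlation (0.376) was thus between libraries of different runs. It involved library 22, and the lowest (-0.402) was that of libraries 22 and 23. Both ends of the macrophage range thus involve libraries that stood apart from their groups, and say little about runs. Not every same-run pair was over 0.1 in any cell type, so the runs were not taken as pairs, and shared deviations remain in the third fibroblast run (0.119 to 0.298) and the first MAEC run (0.0958 to 0.168).

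Among single members, Rc3h1 in MAEC libraries against fibroblasts lost its call under the block (-0.364, edgeR adjusted p = 0.116) and without the first 0 h MAEC library (-0.326, edgeR adjusted p = 0.0756). Rc3h2 in macrophages against fibroblasts gained a call in 7 of 34 alternatives (adjusted p between 8.32e-05 and 0.19 over all). Counts over all genes moved by more than 1.5 times with DESeq2, which called 13 genes at 1 h in macrophages against 3 with edgeR and 15 against 4 at 2 h. Over all alternatives the count ranged from 0 to 365 at 2 h against 1 h in fibroblasts and from 0 to 231 at 2 h against 0 h in the MAEC libraries, both 0 in edgeR as described. For differences of changes it ranged from 1 to 148 at 2 h in macrophages minus MAEC libraries (9 in edgeR), from 1 to 62 at 1 h (2 in edgeR), and from 0 to 132 in MAEC libraries minus fibroblasts at either time (0 in edgeR). The cause was not tested. Low counts limit Zc3h12c in the MAEC libraries, with 17 to 328 counts at 0 h.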

Other observations

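Related decay genes at 0 h are given beside the share of all genes called, which was 68.3% in macrophages against fibroblasts, 32.7% higher and 35.5% lower. Of 14 exosome genes 9 were lower and 1 higher (median log2 difference -0.73, against -0.07 over all genes), led by the ribonuclease gene Dis3 at -2.62 (SE 0.113). Of 16 other 3′ region binding proteins 12 were lower and 2 higher, and the Regnase-4 gene Zc3h12d stood at 8.16 (SE 0.52) on the higher side. Of 18 deadenylation genes 9 were lower and 4 higher, a share called near that of all genes, with the CCR4-NOT scaffold gene Cnot1 at -1.35 (SE 0.128).

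In macrophages against the MAEC libraries 76.7% of all genes were called at 0 h, 36.1% higher and 40.6% lower. Of 11 decapping genes 9 were higher and 1 lower (median 1.75, against -0.13 over all genes), with the decapping enzyme gene Dcp2 at 3.40 (SE 0.159), the helicase gene Ddx6 at 2.88 (SE 0.104) and Lsm1 at -1.90 (SE 0.151). Of 14 exosome genes 9 were lower and 3 higher. Of 13 kinases, phosphatases and proteases 9 were higher and 3 lower, and the 4 with the smallest p were the phosphatase gene Ppp2ca at 3.07 (SE 0.0942), the p38 delta kinase gene Mapk13 at a fitted -10.01 (SE 0.308), near 0 counts in macrophages, the tristetraprolin kinase gene Mapkapk2 at 4.18 (SE 0.18) and Akt1 at 2.39 (SE 0.122). The library kits also differ between these cell types, and their part was not tested.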
